A study of Mus musculus with 12 samples.

Results

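The DOCK genes encode guanine nucleotide exchange factors, proteins that switch on the small GTPases Rac and Cdc42. The members described here were 8 mouse genes, Dock1, Dock4, Dock5, Dock6, Dock8, Dock9, Dock10 and Dock11, taken by symbol from the 53700 gene identifiers of the deposited count table. They were picked from the same table in which they are described, with Dock11 already known to stand out, so their levels and differences are given as a description with no p-value of their own. All 8 matched an identifier, and 7 of the 8 passed the filter on low counts; Dock10 did not.

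The 12 RNA-seq libraries come from organoid cultures of intrahepatic cholangiocytes, hollow balls of bile duct epithelium grown in Matrigel and harvested at passage 5. The mutant genotype was Jag1 Ndr/Ndr (Ndr below), homozygous for a missense allele of the Notch ligand Jag1 and used as a model of Alagille syndrome, in mice 1219, 1220 and 1224. Wild-type mice (WT) were 1221, 1223 and 1225. Each mouse gave a hilar culture, from the large ducts near the liver entry, and a peripheral culture, so the 4 groups were Ndr hilar, WT hilar, Ndr peripheral and WT peripheral with 3 libraries each. The cultures were untreated, and the labels give no age and no Cre or transgene. Every library is a culture expanded from 1 region of 1 liver, so it reports what grew as well as what the cells expressed.

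A small GTPase such as Rac or Cdc42 is inactive with GDP bound and active with GTP bound, and exchange factors drive that switch. DOCK proteins do so through a DOCK homology region of their own and not through the Dbl domain of the larger exchange factor family, and they shape actin, cell movement and polarity. Dock1 and Dock5 act on Rac with ELMO partners, Dock4 acts on Rac, Dock6 and Dock8 belong to a subfamily with activity toward Rac and Cdc42, and Dock9, Dock10 and Dock11 act on Cdc42. Dock8 and Dock10 are best known from leukocytes. Human DOCK6 mutations cause a recessive form of Adams-Oliver syndrome, other forms of which arise from Notch pathway genes.

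Library totals ranged from 6708822 to 16030880 counts. Bile duct epithelium markers were present throughout: 11 of 12 averaged at least 1 CPM (CPM being the read count scaled to a common library size), only Sctr did not, and their summed level was 12396 to 14167 CPM in Ndr hilar, 11697 to 18634 in WT hilar, 10602 to 19830 in Ndr peripheral and 12326 to 14893 in WT peripheral libraries. All libraries held Ddx3y reads (333 to 1264) and at most 1 Xist read, which bears on Dock11 because that gene is X-linked. Jag1 averaged 141 ± 53.3 CPM in Ndr hilar, 120 ± 59.3 in WT hilar, 103 ± 44.8 in Ndr peripheral and 128 ± 44.9 in WT peripheral libraries (SD, n = 3 each); since the Ndr allele is a missense change, its read count does not check the genotype labels. The only derivation date shared by both genotypes was that of mice 1224 and 1225, so for the other mice genotype and derivation date cannot be told apart.

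The Dock11 gene is at chrX:35888832-36076562 on the plus strand of GRCm38, and Dock1 is at chr7:134670654-135173639, also on the plus strand. Dock9, the nearest relative of Dock11 by coding sequence, is at chr14:121542046-121797837 on the minus strand. Dock5 (chr14:67752135-67933442), Dock6 (chr9:21799860-21852635) and Dock10 (chr1:80501073-80758527) are also on minus strands, and Dock4 (chr12:40445952-40846874) and Dock8 (chr19:24999534-25202432) are on plus strands. Because Notch signals through the DNA-binding protein RBPJ, promoter windows from RefSeq (GRCm38.p6; 250 bases before to 50 after a start) were searched on both strands for the RBPJ core TGGGAA and for the GC box GGGCGG. Windows were found for 7 of the 8 members, not for Dock5. The Dock11 window, shown because that gene's level differed most, carries its GC boxes in capitals, and the Dock1 and Dock9 windows carry their single RBPJ core in capitals, on the reverse strand in Dock1. The Dock9 window belongs to a start inside the annotated gene.
Dock11, chrX:35888582-35888881, plus strand: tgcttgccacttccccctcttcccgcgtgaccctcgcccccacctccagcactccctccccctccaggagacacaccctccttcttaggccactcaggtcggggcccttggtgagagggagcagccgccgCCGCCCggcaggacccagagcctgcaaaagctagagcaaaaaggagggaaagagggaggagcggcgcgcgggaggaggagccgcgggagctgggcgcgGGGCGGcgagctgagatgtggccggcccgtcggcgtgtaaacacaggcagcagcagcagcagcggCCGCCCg
Dock1, chr7:134670437-134670736, plus strand: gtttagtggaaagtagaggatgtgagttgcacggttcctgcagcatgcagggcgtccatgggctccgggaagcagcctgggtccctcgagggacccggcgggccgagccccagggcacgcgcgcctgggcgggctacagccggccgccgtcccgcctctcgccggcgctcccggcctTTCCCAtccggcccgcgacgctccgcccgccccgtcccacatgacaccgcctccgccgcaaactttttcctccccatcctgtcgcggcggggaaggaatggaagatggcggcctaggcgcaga
Dock9, chr14:121698368-121698667, minus strand: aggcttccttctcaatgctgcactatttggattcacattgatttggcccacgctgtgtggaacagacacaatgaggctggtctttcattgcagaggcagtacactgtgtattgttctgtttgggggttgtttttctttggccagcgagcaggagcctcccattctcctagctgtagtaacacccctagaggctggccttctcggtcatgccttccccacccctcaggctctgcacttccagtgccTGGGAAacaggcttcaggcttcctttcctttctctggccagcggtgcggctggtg
An RBPJ core was found in 2 of the 10 member windows, these being Dock1 and 1 of the 3 Dock9 windows, against 25.6% of all 32851 promoter windows. A GC box was found in 7 of the 10, against 35.7% of all, and Dock11 held 3. The Dock11 window had 70.3% G and C and 25 CpG, where the median window had 52.7% and 7. None of the 10 windows held TATAAA, which 13.6% of all windows did.

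No run of 50 bases was shared between the annotated transcripts of a member and those of another DOCK gene, and no exon of a member overlapped an exon of another gene. Coding sequences were 70.1% identical between Dock1 and Dock5, 67.9% between Dock6 and Dock8 and 67% between Dock9 and Dock11, the last over the longest coding sequences of both.

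Set per length, Dock1 had the highest level of the 8 members. Over the 12 libraries it averaged 13.9 CPM per kb of exon, against 5.71 for Dock11, 4.92 for Dock5, 4.54 for Dock9, 2.44 for Dock4, 1.81 for Dock6 and 0.356 for Dock8. Dock10 averaged 0.00353 CPM per kb. Among family genes outside the list, Dock2, known from leukocytes, had 2 reads in all and Dock3, known from neurons, had 0 in all 12 libraries. With the length of the transcript with the longest coding sequence in place of all exons, a choice made after seeing the data, Dock1 was still first at 19 CPM per kb and Dock11 next at 7.92, Dock9 at 7.7 and Dock4 at 6.54 passed Dock5 at 5.99, and Dock6, Dock8 and Dock10 stayed the lowest.

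**Figure D1:**
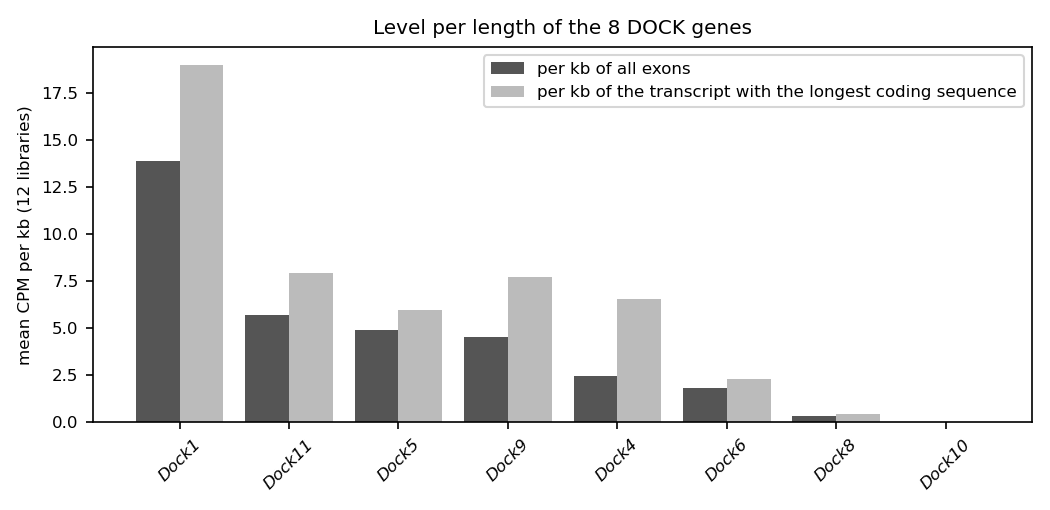
Mean level of the 8 members over 12 libraries, in CPM per kb, by the length of all exons (dark) or of the transcript with the longest coding sequence (light). Dock1 (13.9 and 19) leads under both lengths, and Dock10 is near 0.

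Dock11, known as an exchange factor for Cdc42, was the member with the clearest pattern. Its level was 19.9, 8.36 and 19.7 CPM in the hilar cultures of Ndr mice 1219, 1220 and 1224, against 41.7, 63.5 and 83.8 CPM in those of WT mice 1221, 1223 and 1225. In peripheral cultures it was 59.9, 50.1 and 48.5 CPM in the same Ndr mice, against 91.8, 71.2 and 75.1 CPM in the WT mice. The 3 Ndr hilar libraries were the lowest of all 12, and in both regions every Ndr library lay below every WT library. These values rest on 64 to 1093 reads per library. In such bulk cultures, fewer cells that express a gene and less RNA per cell cannot be told apart.

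By group, Dock11 averaged 16 ± 6.6 CPM in Ndr hilar and 63 ± 21.1 CPM in WT hilar cultures (SD, n = 3 each), a log2 difference of -1.97 ± 0.343 (SE), or 0.255 times. In peripheral cultures it averaged 52.8 ± 6.19 CPM in Ndr and 79.4 ± 11 CPM in WT, a log2 difference of -0.59 ± 0.329. From the lowest, the order of groups was Ndr hilar, Ndr peripheral, WT hilar and WT peripheral. Ndr hilar stood apart from its neighbour in that order, while WT hilar overlapped both Ndr peripheral and WT peripheral.

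With the hilar and peripheral reads of a mouse summed, Dock11 was 38.5, 31.9 and 36.7 CPM in the Ndr mice and 63.4, 67.9 and 80.2 CPM in the WT mice. The means were 35.7 ± 3.45 CPM in Ndr and 70.5 ± 8.69 CPM in WT mice (SD, n = 3 each), a log2 difference of -0.98 ± 0.145. Between the mice that share a derivation date, Dock11 was 19.7 CPM in Ndr mouse 1224 and 83.8 CPM in WT mouse 1225 in hilar cultures, a log2 difference of -2.06. In peripheral cultures it was 48.5 CPM in 1224 and 75.1 CPM in 1225, a log2 difference of -0.63, so the direction was the same within that date, with 1 mouse per genotype.

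Within each Ndr mouse, Dock11 was lower in the hilar than in the peripheral culture, at 33.3%, 16.7% and 40.5% of the peripheral level in 1219, 1220 and 1224. Within the WT mice the hilar level was 45.4%, 89.2% and 111% of the peripheral level in 1221, 1223 and 1225. The hilar minus peripheral log2 difference was -1.72 ± 0.34 in Ndr and -0.34 ± 0.328 in WT mice, and the Ndr minus the WT value of that difference was -1.39 ± 0.468.

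**Figure D2:**
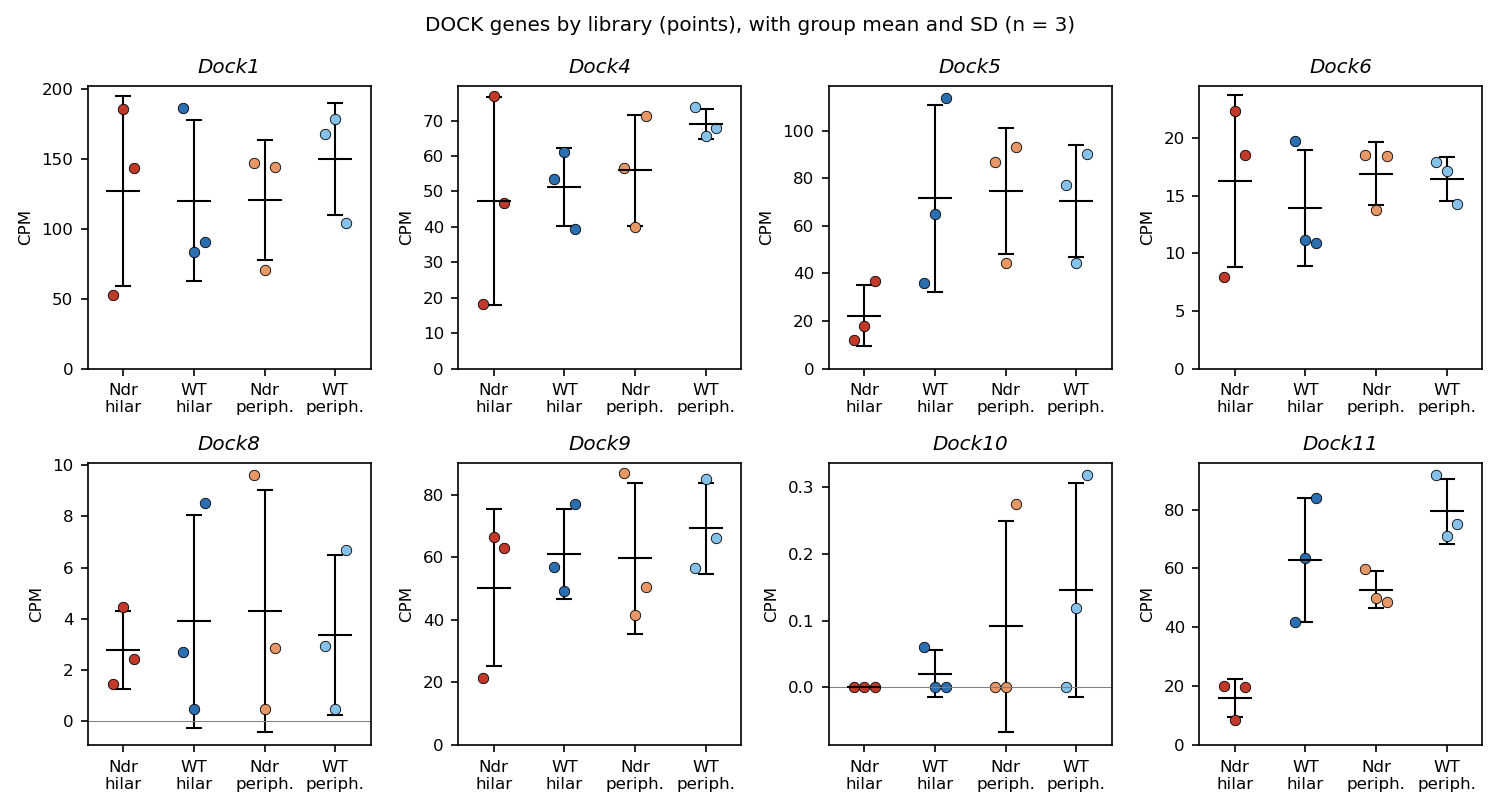
CPM of the 8 members in the 12 libraries, one point per library, with group mean and SD (n = 3); each panel has its own axis. Dock11 in Ndr hilar libraries sits between 8.36 and 19.9 CPM, below the other 9 libraries, while most other members overlap between groups.

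Dock5, an exchange factor for Rac related to Dock1, had a low level in the same group. It was 12.2, 17.9 and 36.8 CPM in the hilar cultures of Ndr mice 1219, 1220 and 1224, against 36.1, 65 and 114 CPM in those of WT mice 1221, 1223 and 1225. In peripheral cultures it was 87, 44.4 and 93 CPM in the Ndr mice, against 77.3, 44.5 and 90.1 CPM in the WT mice. The hilar groups overlapped by a single pair of libraries, at 36.8 and 36.1 CPM, and the peripheral groups overlapped over most of their range.

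The hilar means of Dock5 were 22.3 ± 12.9 CPM in Ndr and 71.6 ± 39.2 CPM in WT (SD, n = 3 each), a log2 difference of -1.68 ± 0.512, and the peripheral difference was 0.08 ± 0.494. Without the hilar library of Ndr mouse 1224 the hilar value was -2.27, and without that of WT mouse 1225 it was -1.18. Ndr hilar was the lowest group, and the other 3, at 70.6 to 74.8 CPM, did not differ beyond their spread. Within Ndr mice the hilar level was 14%, 40.3% and 39.5% of the peripheral level in 1219, 1220 and 1224, and within WT mice it was 46.7%, 146% and 126% in 1221, 1223 and 1225. The hilar minus peripheral log2 difference was -1.75 ± 0.512 in Ndr and 0.02 ± 0.494 in WT mice, with -1.77 ± 0.707 for the Ndr minus the WT value. For mouse totals the genotype difference of Dock5 was -0.48 ± 0.358, and -0.11 without WT mouse 1225.

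**Figure D3:**
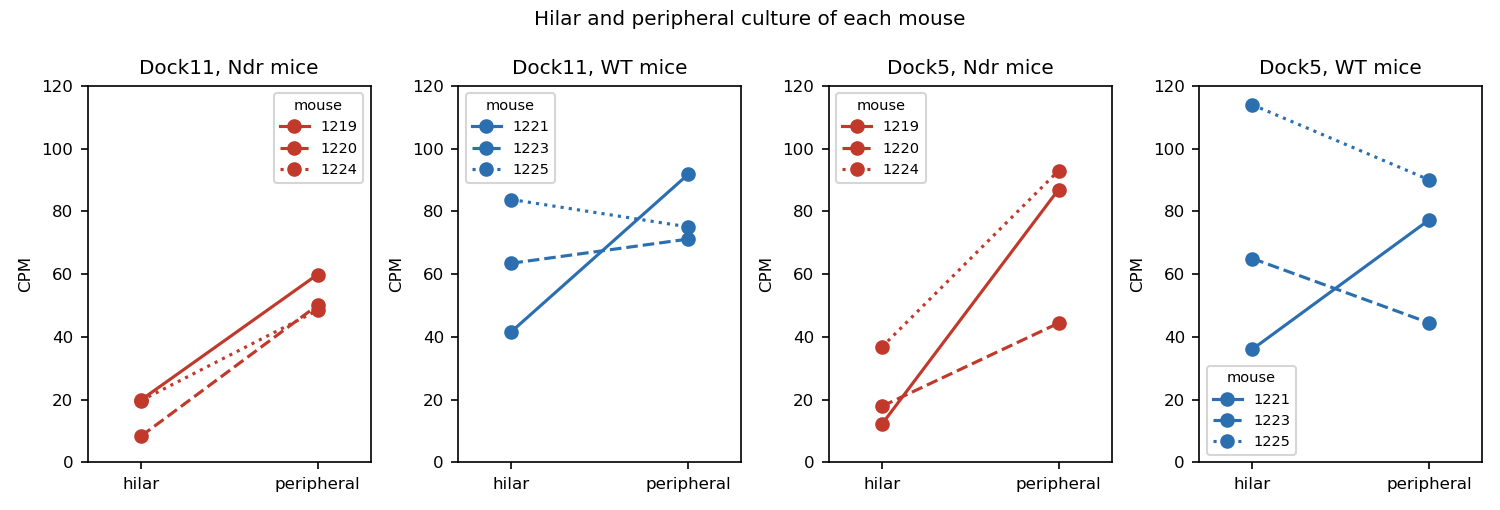
Dock11 and Dock5 in the hilar (left) and peripheral (right) culture of each mouse, in CPM, with a line per mouse. Both genes are lower in the hilar culture of all 3 Ndr mice; in WT mice Dock11 is lower in 2 of 3 and Dock5 in 1 of 3.

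In edgeR's quasi-likelihood test over all genes, 0 of the 7 tested members passed an adjusted p of 0.05 in hilar cultures between genotypes, as did 0% of all 15014 genes tested. Unadjusted p-values were under 0.05 for 2 members, Dock5 and Dock11, against 6.54% of all genes. DESeq2 called 1 member, Dock11, in that comparison, where it called 0.254% of the genes it tested, and limma-voom called 0. On the authors' normalized table, limma-trend called 2 members there, Dock5 and Dock11, beside 8.49% of all genes. The counts of members called by edgeR were also 0 of 7 between genotypes in peripheral cultures, for mouse totals, between regions in Ndr, in WT and over both genotypes, and for the difference of the region differences, each beside 0% of all genes. For mouse totals 2 members, Dock9 and Dock11, had an unadjusted p under 0.05, as did 5.42% of all genes. Dock5 and Dock11 did so between regions in Ndr mice, against 10.3% of genes, between regions over both genotypes, against 6.07%, and for the difference of the region differences, against 3%. The count was 0 in peripheral cultures between genotypes, against 2.92% of genes, and between regions in WT mice, against 0.506%. DESeq2 called Dock11 for mouse totals, where it called 0.652% of genes, and between regions in Ndr mice, where it called 0.47%; it called 0 members in peripheral cultures between genotypes (0.0559% of genes), between regions in WT (0%) and over both genotypes (0.00705%), and for the difference of the region differences (0.0141%). limma-voom called 0 members in all 7 comparisons, beside 0% of genes. On the authors' normalized table, limma-trend called 5 members for mouse totals, 3 lower in Ndr (Dock5, Dock9 and Dock11) and 2 higher (Dock1 and Dock6), beside 37.6% of genes, and 1, Dock11, between regions in Ndr mice, beside 0.282%. It called 0 members in peripheral cultures between genotypes (0.798% of genes), between regions in WT (0.0271%) and over both genotypes (0.201%), and for the difference of the region differences (0.141%). Since Dock11 was already known to stand out when the members were picked, nothing further is read from these calls and p-values.

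Groups that did not overlap were read against all genes in the same way. In hilar cultures 1 of 7 members, Dock11, lay wholly lower in Ndr than in WT, as 4.18% of genes did, and in peripheral cultures again 1, Dock11, against 3.61%. For mouse totals 2 of 7 did, Dock9 and Dock11, against 5.78%. Hilar lay wholly below peripheral for Dock5 and Dock11 in Ndr mice, against 7.93% of genes, and for Dock4 in WT mice, against 2.6%. No member lay wholly higher, which 4.57% of genes did between genotypes in hilar cultures, 5.41% in peripheral cultures and 5.49% for mouse totals, and 7.49% between regions in Ndr and 2.94% in WT mice. Taken within each mouse, the hilar culture was the lower in 3 of 3 Ndr mice for Dock5 and Dock11, against 12.8% of genes, and in 3 of 3 WT mice for Dock4, against 9.35%. The members were chosen with these contrasts known, so nothing further is read from these counts.

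**Figure D4:**
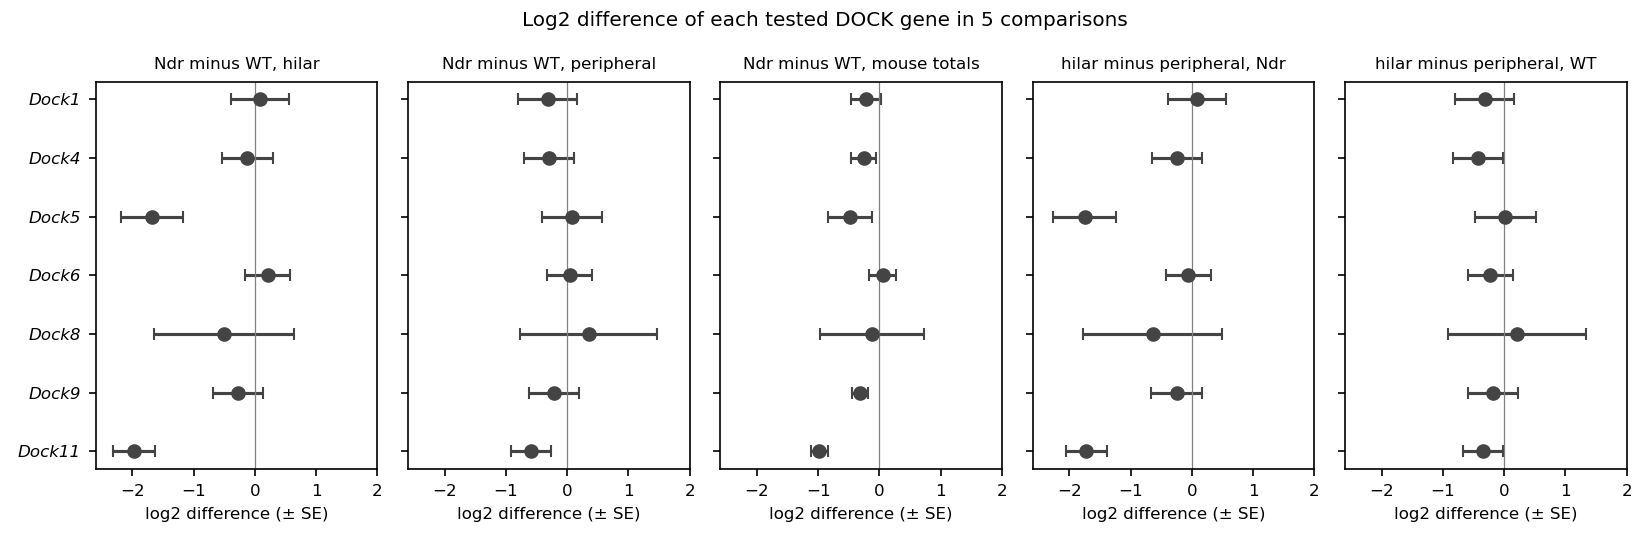
Log2 difference ± SE of the 7 tested members, Ndr minus WT in hilar cultures, peripheral cultures and mouse totals, and hilar minus peripheral in Ndr and in WT mice. Dock11 is at -1.97, -0.59, -0.98, -1.72 and -0.34, and Dock5 is far from 0 in the hilar genotype panel (-1.68) and the Ndr region panel (-1.75).

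Dock1, the founding member and a Rac exchange factor of cell engulfment and migration, varied between libraries more than between groups. It was 52.7, 186 and 144 CPM in the hilar cultures of Ndr mice 1219, 1220 and 1224, against 187, 83.4 and 90.9 CPM for WT mice 1221, 1223 and 1225. The peripheral cultures had 147, 70.7 and 144 CPM in Ndr and 168, 179 and 104 CPM in WT. Groups overlapped in every comparison, and the log2 differences between genotypes were 0.08 ± 0.475 in hilar and -0.32 ± 0.475 in peripheral cultures. For mouse totals the Dock1 value was -0.22 ± 0.249, and 0.54 both with derivation date as a factor and on the authors' normalized table. With date as a factor only mice 1224 and 1225, which share a date, compare the genotypes. In Ndr mouse 1219 the hilar culture held 35.9% of the peripheral level and in 1220 it held 263%.

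Dock4, a Rac exchange factor, was 18.3, 76.8 and 46.9 CPM in hilar cultures of the Ndr mice against 53.4, 61.2 and 39.4 CPM in WT hilar cultures. It was 56.6, 40 and 71.3 CPM in Ndr peripheral and 73.8, 65.5 and 67.8 CPM in WT peripheral cultures. In WT mice the hilar culture was the lower in 3 of 3, with means of 51.3 ± 11 CPM hilar and 69.1 ± 4.25 CPM peripheral (SD, n = 3 each) and a log2 difference of -0.43 ± 0.412; in Ndr mice 2 of 3 went that way.

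Dock6, of the subfamily active toward Rac and Cdc42, had the narrowest range among the tested members. It was 7.93, 22.3 and 18.5 CPM in hilar cultures of the Ndr mice against 19.7, 11.1 and 10.9 CPM in WT hilar cultures, and 18.5, 13.8 and 18.5 CPM in Ndr peripheral and 17.9, 17.1 and 14.3 CPM in WT peripheral cultures. The highest library was 2.82 times the lowest, against 11 times for Dock11 and 9.33 times for Dock5. Group means ran between 13.9 and 16.9 CPM and did not differ beyond their spread, and the genotype difference of the mouse totals was 0.05 ± 0.223. For Dock6 that value was 0.52 with derivation date as a factor, where only mice 1224 and 1225 compare the genotypes. On the authors' normalized table it was 0.53.

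Dock9, an exchange factor for Cdc42, was 21.4, 66.6 and 62.9 CPM in hilar cultures of the Ndr mice against 57, 49.1 and 77.1 CPM in WT hilar cultures, and 87.1, 41.7 and 50.4 CPM in Ndr peripheral and 56.5, 85.2 and 66.1 CPM in WT peripheral cultures. Single groups overlapped throughout. Summed per mouse it was 52.2, 51 and 56 CPM in the Ndr mice and 57.4, 69.5 and 72.2 CPM in the WT mice, which did not overlap, with a log2 difference of -0.32 ± 0.132. The highest Ndr mouse and the lowest WT mouse, 1224 and 1221, were 56 and 57.4 CPM.

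The ratio of Dock11 to Dock9, both per kb of exon, does not depend on library scaling. It was 1.34, 0.18 and 0.448 in the hilar cultures of Ndr mice 1219, 1220 and 1224, against 1.05, 1.85 and 1.56 in those of WT mice 1221, 1223 and 1225. The hilar groups overlapped in this ratio through Ndr mouse 1219, where Dock9 was at its lowest. Peripheral ratios were 0.986 to 1.72 in Ndr and 1.2 to 2.33 in WT. The ratio of Dock5 to Dock1 was 0.177, 0.0739 and 0.196 in the hilar cultures of the Ndr mice, against 0.148, 0.598 and 0.958 in the WT hilar cultures, and 0.454 to 0.494 in Ndr peripheral against 0.191 to 0.663 in WT peripheral cultures.

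Dock8, best known from lymphocytes, was detected at low level and varied most among the tested members, 20.7 times between its extremes. It was 1.45, 4.44 and 2.43 CPM in hilar cultures of the Ndr mice against 2.68, 0.463 and 8.54 CPM in WT hilar cultures, and 9.61, 0.472 and 2.84 CPM in Ndr peripheral and 2.94, 0.478 and 6.68 CPM in WT peripheral cultures. Both cultures of WT mouse 1223 were under 0.5 CPM and both of WT mouse 1225 were above 6 CPM, while the cultures of Ndr mouse 1219 and those of 1220 differed widely by region. The lowest library held 3 reads and the highest 93, and the log2 differences between genotypes were -0.50 ± 1.14 in hilar and 0.35 ± 1.12 in peripheral cultures. Single libraries turned both Dock8 values: the hilar one was 0.74 without WT hilar 1225 and the peripheral one was -1.02 without Ndr peripheral 1219. With derivation date as a factor the peripheral value was -1.44. In that fit only mice 1224 and 1225 set the genotype difference averaged over regions, while every mouse adds to the region difference. Between mice 1224 and 1225 alone, the peripheral log2 difference of Dock8 was -1.11.

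Dock10, known from lymphocytes and neurons, was at the limit of detection. It had 0, 0 and 0 reads in Ndr hilar, 1, 0 and 0 in WT hilar, 0, 0 and 3 in Ndr peripheral and 0, 1 and 3 in WT peripheral libraries, 8 in all. A count of 0 over the 3 Ndr hilar libraries allows up to 0.12 CPM (3 counts over the group, counting error only), so no difference between groups could be seen at this depth. Of 15 immune markers 5 (Cd3g, Ms4a1, Adgre1, Itgax and Laptm5) had 0 reads in all 12 libraries, Ptprc had 2 reads in all, and only Csf1r averaged at least 1 CPM. Csf1r averaged 25.9 ± 13.5 CPM in Ndr hilar and 11 ± 5.48 CPM in WT hilar cultures (SD, n = 3 each). It was not called by edgeR there, with an unadjusted p under 0.05, as 6.54% of all genes had. In the other comparisons it was not under 0.05. The part of Csf1r in the Dock11 and Dock5 values was not tested. The summed level of the 15 was 12.8 to 37.8 CPM in Ndr hilar, 11.1 to 17.1 in WT hilar, 7.54 to 26.3 in Ndr peripheral and 15.1 to 16.1 in WT peripheral libraries.

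Correlations between tested members across the 12 libraries are given as descriptions, since the libraries come from 6 mice and share their scaling. Dock5 and Dock11 had a Pearson r of 0.82 on log2 CPM. Dock1 went with Dock6 at 0.922, with Dock4 at 0.766 and with Dock9 at 0.698, whereas Dock1 and Dock11 were at -0.05. Dock1, Dock4, Dock5, Dock6 and Dock9 each had their lowest level in the hilar library of Ndr mouse 1219. Dock11 had its lowest in that of Ndr mouse 1220 and Dock8 in that of WT mouse 1223. How many of all genes were lowest in the hilar library of mouse 1219 was not counted. Nothing about the members is therefore read from this.

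Among tested genes averaging at least 5 CPM, the 3 whose log2 CPM followed Dock11 most closely over the 12 libraries were Pkn3 (r = 0.928), Slc39a4 (0.925) and Cdca7l (0.915). For Dock5 they were Cdk16 (0.975), Arhgap27 (0.963) and Tnfaip1 (0.955), and for Dock1 Phf2 (0.988), Glis3 (0.987) and Ambra1 (0.986). Dock6 was followed by Erbb2 (0.959), Tom1l2 (0.959) and Prdm2 (0.955), and Dock9 by Fbxo45 (0.969), Larp4b (0.967) and Tnpo1 (0.963). Dock4 had Mms19 (0.947), Sbf2 (0.944) and Gm42547 (0.938), and Dock8 had Cyb561 (0.854), Rbpj-ps3 (0.841, a pseudogene whose reads could belong to Rbpj) and Gcnt1 (0.836).

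Markers of proliferation varied widely between the hilar libraries. The summed level of 12 such genes was 529, 292 and 315 CPM in the hilar cultures of Ndr mice 1219, 1220 and 1224, against 521, 365 and 2191 CPM in those of WT mice 1221, 1223 and 1225. In peripheral cultures it was 854 to 1493 CPM in Ndr and 740 to 925 CPM in WT. All 12 had a lower fitted level in Ndr than in WT hilar cultures, and 0 of 12 passed the edgeR test, with 6 at an unadjusted p under 0.05, against 6.54% of all genes. The sums of the hilar groups overlapped, and apart from WT mouse 1225 the WT sums (521 and 365 CPM) lay within the Ndr range. The hilar culture of WT mouse 1223, at a sum of 365 CPM, had 63.5 CPM of Dock11 and 65 CPM of Dock5. Between regions in Ndr mice all 12 were lower in hilar cultures, with 0 called by edgeR and 8 at an unadjusted p under 0.05, against 10.3% of all genes. Over the 12 libraries the log2 sum had a Pearson r of 0.68 with Dock11 and 0.59 with Dock5, and of 0.66 and 0.49 without the hilar library of WT mouse 1225; for the other 5 tested members r lay between -0.27 and 0.20. In hilar cultures of mice 1219 and 1221, whose sums were 529 and 521 CPM, Dock11 was 19.9 CPM in Ndr 1219 and 41.7 CPM in WT 1221. The part of proliferation in the difference was not tested.

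The summed level of 8 hepatocyte markers was 42.8 to 97.2 CPM in Ndr hilar, 6.15 to 23.2 in WT hilar, 11.5 to 28.1 in Ndr peripheral and 9.81 to 15.9 in WT peripheral libraries; 3 of 8 (Alb, Ass1 and Ttr) averaged at least 1 CPM and were tested, and Cps1 was at 0. None of the 3 passed the edgeR test between genotypes in hilar cultures. Ttr alone had an unadjusted p under 0.05 there, as did 6.54% of all genes. Ttr was also under 0.05, and higher in Ndr, in peripheral cultures (2.92% of genes) and for mouse totals (5.42%). Between regions it was under 0.05, and higher in hilar cultures, in Ndr mice (10.3%) and over both genotypes (6.07%). Ttr averaged 42.8 ± 15.4 CPM in Ndr hilar and 4.91 ± 2.86 CPM in WT hilar cultures (SD, n = 3 each). Alb averaged 22.9 ± 15.6 and 5.68 ± 8.87 CPM in the same groups, whereas Ass1 averaged 2.19 ± 1.86 and 4.96 ± 4.42 CPM. Of 8 endothelial and 10 fibroblast markers none averaged 1 CPM, with Kdr, Emcn, Clec4g, Dcn and Lum at 0. The sum of 4 mesothelial markers was 106 to 269 CPM in Ndr hilar, 37.5 to 658 in WT hilar and 360 to 602 in Ndr peripheral libraries, with the WT peripheral libraries inside the WT hilar range, and was led by Msln. Wt1, another of the 4, averaged 2.11 ± 1.54 CPM in Ndr hilar and 9.13 ± 14.6 CPM in Ndr peripheral cultures (SD, n = 3 each) and was at 0 in both WT groups. Wt1 was not called by edgeR. Its unadjusted p was under 0.05 between genotypes in hilar cultures (6.54% of all genes), in peripheral cultures (2.92%) and for mouse totals (5.42%). Msln averaged 202 ± 87.1 CPM in Ndr hilar and 339 ± 310 CPM in WT hilar cultures. In peripheral cultures Msln averaged 465 ± 124 CPM in Ndr and 276 ± 204 CPM in WT. Elavl4 was at 0 among 6 neuronal markers, whose sum was 12.1 to 19.5 CPM in Ndr hilar, 10.8 to 53.3 in WT hilar, 8.6 to 42 in Ndr peripheral and 20.3 to 31.4 in WT peripheral libraries. The part of these markers in the Dock11 and Dock5 values was not tested.

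**Figure D5:**
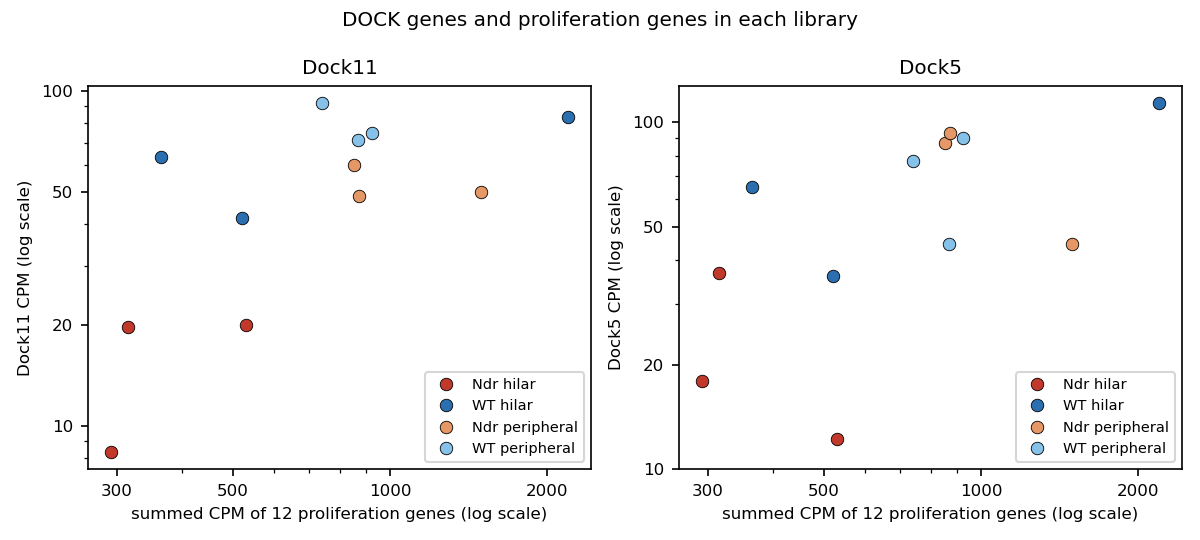
Dock11 (left) and Dock5 (right) in CPM against the summed CPM of 12 proliferation genes, both on log scales, with a point per library. The Ndr hilar libraries lie at sums of 292 to 529 CPM and at the lowest Dock11 values, and the WT hilar library with the highest sum (2191) has 83.8 CPM of Dock11.

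The GTPases Cdc42 and Rac1, on which DOCK proteins act, were abundant in every group. Cdc42, the target of Dock9 and Dock11, averaged 541 ± 74 CPM in the hilar cultures of Ndr mice against 542 ± 72.6 CPM in those of WT mice, and 525 ± 58.4 CPM in Ndr peripheral against 481 ± 31 CPM in WT peripheral cultures (SD, n = 3 each). Rac1, the target of Dock1, Dock4 and Dock5, averaged 259 ± 12.9 CPM in Ndr hilar against 317 ± 42 CPM in WT hilar cultures; the peripheral means were 353 ± 28.5 CPM in Ndr and 342 ± 28.9 CPM in WT. Neither passed the edgeR test in any of the 7 comparisons.

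None of the tested adaptors and partners of DOCK proteins passed the edgeR test. Crk, the adaptor that recruits Dock1, averaged 287 ± 65.6 CPM in Ndr hilar, 279 ± 23.6 in WT hilar, 292 ± 46.3 in Ndr peripheral and 287 ± 14.2 in WT peripheral cultures (SD, n = 3 each). Mob1a and Mob1b, which relay Hippo signals, averaged 227 ± 31.9 and 124 ± 15.6 CPM in Ndr hilar against 259 ± 43.5 and 142 ± 5.41 CPM in WT hilar cultures. The ELMO partners Elmo2 and Elmo3, named here for their role, averaged 48.1 ± 12.8 and 61.5 ± 7.7 CPM in Ndr hilar against 38.8 ± 16.5 and 54.3 ± 20.3 CPM in WT hilar cultures. Of 16 genes 14 were tested and 0 were called in any comparison, with a median log2 difference of 0.09 between genotypes in hilar cultures.

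Downstream, the effectors of Rac and Cdc42 included Iqgap1, a scaffold of the cell cortex, at 530 ± 141 CPM in Ndr hilar and 612 ± 47.7 CPM in WT hilar cultures, Nckap1, of the WAVE actin complex, at 330 ± 8.62 CPM in Ndr hilar and 365 ± 32.4 CPM in WT hilar, and Cdc42ep1 at 248 ± 94 CPM in Ndr hilar and 174 ± 72.5 CPM in WT hilar (SD, n = 3 each). Of 33 listed effectors 32 matched an identifier, 29 were tested and 0 were called in any comparison; the median was -0.16 in hilar cultures between genotypes. Pak6, a kinase of the p21-activated family chosen here after its values were seen, averaged 19.1 ± 3.56 CPM in Ndr and 38.8 ± 2.35 CPM in WT mice for the summed cultures, with a log2 difference of -1.02 ± 0.171 that did not pass the edgeR test (adjusted p = 0.374).

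Exchange factors of the Dbl family had a median log2 difference of -0.10 in hilar cultures between genotypes over the 53 tested of 60. None of the 53 was called in any comparison by edgeR, and 3 of the 53 (Arhgef26, Arhgef39 and Itsn2) had an unadjusted p under 0.05 in that one, where 6.54% of all genes did. The most abundant by CPM were Arhgef17 at 228 ± 118 CPM in Ndr hilar and 245 ± 135 CPM in WT hilar, Arhgef5 at 184 ± 14.3 CPM in Ndr hilar and 192 ± 26.2 CPM in WT hilar, and Net1 at 150 ± 30.8 CPM in Ndr hilar and 193 ± 35 CPM in WT hilar cultures. The counteracting inhibitors and GTPase activating proteins were led by Arhgdia, a GDP dissociation inhibitor, at 293 ± 20.1 CPM in Ndr hilar and 410 ± 116 CPM in WT hilar, Arhgap5 at 242 ± 56.4 CPM in Ndr hilar and 201 ± 7.56 CPM in WT hilar, and Arhgap35 at 123 ± 71.4 CPM in Ndr hilar and 128 ± 39.1 CPM in WT hilar cultures. Of 25 such genes 22 were tested, 0 were called in any comparison, and their median was -0.09 in hilar cultures between genotypes. Between regions in Ndr mice the medians were 0.04 for adaptors and partners, -0.06 for effectors, -0.07 for Dbl exchange factors and -0.26 for inhibitors and activating proteins, against -0.01 for all genes.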

How the data were processed

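Both deposited tables cover all 12 organoid cultures of the 6 mice. The first holds the raw count of reads for every gene as the authors deposited it; the submitters' processing notes name featureCounts and GRCm39. Which aligner, annotation release and strand setting went into it is not stated in the labels or notes, so transcripts that overlap on opposite strands cannot be told apart. The second holds normalized signal values from the authors, and the same notes list DESeq2 1.34.0. Among raw counts of at least 10, only 2.39% to 4.76% of the normalized values per library lay within 1% of a single ratio to the raw count, so that table holds more than a division by 1 factor, and it was used only as an alternative.

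Gene symbols, loci and exon lengths came from GENCODE M21 (GRCm38), and printed coordinates are of that build and not of the build of the counts; 52093 of 53700 identifiers had a symbol. The tests used edgeR 4.0.16 under R 4.3.3, with its filterByExpr filter, TMM scaling and the robust quasi-likelihood F test. A fit of 12 libraries had 1 coefficient per group, 8 residual degrees of freedom and 15014 genes; a fit of 6 mouse totals, hilar and peripheral reads summed, had 4 residual degrees of freedom and 15401 genes. The Benjamini-Hochberg adjustment ran over every gene in a fit, and calls were made at an adjusted p of 0.05. CPM used TMM-scaled library sizes, and standard errors were computed back from the F statistic. Log2 ratios within a mouse or a date used CPM + 0.5. The fit was tested on simulated data with 200 changed genes. Between genotypes in hilar cultures it called 63.9% of changes of 2 on the log2 scale and 79.8% of changes of 3. For mouse totals the shares were 74.7% and 94.9%, so changes of these sizes can be missed. For 3 samples against 3, the smallest p of an exact two-sided permutation test is 0.1.

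The alternatives were DESeq2 size factors, no filter on low counts, DESeq2 1.42.0, limma-voom and limma-trend in limma 3.58.1 (limma-trend on log2(value + 1) of the authors' normalized table), derivation date as a factor, mouse as a block, and leaving out each library or mouse. The hilar and peripheral cultures with 1 mouse number come from the same animal per the labels, so the numbers pair them for region comparisons; their deviations from the group means correlated at -0.34 to 0.45 over genes.

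The members, the gene lists and the comparisons were chosen with earlier results of these data known. Named in addition were Jag1, the 3 most like genes of each member and the 3 most abundant genes of each list reported. Floors cover counting error only, whereas each SD and SE includes the spread between libraries or mice. Some family genes and 1 gene list are not reported here.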

Additional observations from a re-analysis of the deposited data

How the results depend on the processing

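The count of members called by edgeR was 0 of 7 in each of the 7 comparisons. It was also 0 with DESeq2 size factors, without the low-count filter and with limma-voom. With derivation date as a factor it was 0 in the region comparisons. Between genotypes that setting rests on 1 mouse per genotype for mouse totals and for the level averaged over regions, so its calls are not given. Leaving out each library or mouse gave 0 to 0. DESeq2 called 1 member between genotypes in hilar cultures, 1 for mouse totals and 1 between regions in Ndr mice, each time Dock11. limma-trend on the authors' normalized table called 2 members between genotypes in hilar cultures (Dock5 and Dock11, with 8.49% of all genes called), 5 for mouse totals (Dock5, Dock9 and Dock11 lower in Ndr, Dock1 and Dock6 higher, with 37.6% of all genes called) and 1 between regions in Ndr mice (Dock11, with 0.282%); the cause was not tested. Over all genes edgeR called 0 for mouse totals, against 5 without the low-count filter, 124 with DESeq2 and 4 without Ndr mouse 1219. Without the peripheral library of that mouse it called 2 genes between genotypes in peripheral cultures and 7 between regions in Ndr mice, none of them members. With the mouse as a replicate block, the count was 0 in all 4 region comparisons, so the pairing changed no call. As the members were picked with earlier results known, nothing further is read from the members called.

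Over 49 member values and 868 alternatives, 80 had the other sign and 9 moved by at least 1 SD. For Dock11 0 of 124 changed sign, and for Dock5 10 of 124 did, in the peripheral genotype and WT region comparisons, where its differences were 0.08 and 0.02. None of 131 alternatives changed the sign of the 7 values of at least 1 on the log2 scale. Those 7 values all belong to Dock5 and Dock11 and were picked for their size, so a stable sign was likely beforehand. Many of the alternatives also left out a library outside the groups compared, which can hardly move a value. Nothing further is read from these sign counts. Dock11 in hilar cultures between genotypes ranged from -2.23 to -1.68 when 1 library was left out. The depth limits Dock8 and Dock10, at 3 to 93 and 0 to 3 reads per library. With 3 mice per genotype and 1 shared derivation date, genotype was not separated from date for the other mice. Of 14 sets of 6 libraries checked for a library far from the others, none had one. Each set held a member's libraries of 1 region with Ndr and WT pooled. A difference between genotypes widens such a set, so a library far from its own group could be missed.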
